A study of Mus musculus with 6 samples.

Results

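The genes described here encode the neurotransmitter release machinery, the proteins that dock synaptic vesicles at the nerve terminal, prime them and fuse them with the plasma membrane when calcium enters. They are a list of 37 genes chosen by name and matched by NCBI gene identifier, out of 36528 genes listed per library. The list holds 4 SNARE proteins and the SNARE-recycling ATPase Nsf, 9 synaptotagmins and Doc2b, 2 complexins, 3 Rab3 proteins, 6 vesicle proteins, 9 active zone and priming proteins and 2 neurexins.

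RNA was sequenced from lumbar dorsal root ganglia, which hold the cell bodies of the sensory neurons that innervate the hind limb. All mice were female, 12 to 18 weeks old and homozygous for the floxed allele Scn9a loxP/loxP. The product of Scn9a is Nav1.7, a voltage-gated sodium channel that sets the excitability of pain-sensing neurons. Controls were littermates labelled pCAAG.Cre.ER Neg (n = 3), and the knockout group was labelled pCAAG.Cre.ER Pos (n = 3) and is called CreER-positive here. CreER is a Cre recombinase that becomes active after tamoxifen, and the CAAG promoter is active in most cell types, so the construct is not restricted to sensory neurons. The labels used here give no tamoxifen dose or time, and the controls carry the floxed allele without Cre. Each library came from the 6 pooled ganglia (L4 to L6) of 1 mouse, so a value is an average over neurons, glia and other cells. In such tissue, fewer cells of a type and less RNA per cell cannot be told apart.

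In a resting terminal, vesicle SNAREs (Vamp1 and Vamp2) and plasma membrane SNAREs (Stx1a and Snap25) form a partly zipped complex that complexins hold. Calcium binding by a synaptotagmin then triggers fusion, and Nsf takes the used complexes apart. Rab3, Rim and Munc13 (Unc13) proteins bring vesicles to the active zone and prime them, while Bassoon and Piccolo hold the site together. The transcripts of a sensory neuron are made in the ganglion, and most of the proteins act at central terminals in the spinal cord, which were not sampled.

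Total counts per library ranged from 40237131 to 63332040, and 27589 to 28328 genes had at least 1 count. Levels are given as CPM, counts scaled to library size with TMM factors. Differences are log2 fold changes, CreER-positive against control, with standard errors from edgeR's quasi-likelihood test and p-values adjusted by Benjamini-Hochberg over all 22043 tested genes. A gene is called where that adjusted p is under 0.05. By this rule 160 genes were called (0.726%), of which 39 were higher (0.177%) and 121 were lower (0.549%) in CreER-positive libraries. With libraries scaled to pan-neuronal markers the split was 7 higher and 58 lower. The targeted gene Scn9a had 635, 611 and 557 CPM in controls and 620, 565 and 574 CPM in CreER-positive libraries (log2 fold change -0.04, 95% interval -0.21 to 0.13, edgeR adjusted p = 0.916). Which exons are floxed is not stated in the labels, and reads outside them are counted, so this value does not check the labels. All 13 pan-neuronal markers were detected, with sums of 10412 to 13522 CPM per library, while 5 of 8 spinal cord markers were below the count filter (Opalin, Gad2, Slc6a5, Chat and Olig2). The other 3 passed it, with log2 fold changes of 0.36 (Mog), 0.20 (Aqp4) and 0.32 (Gad1), and 0 were called by edgeR, with Aqp4 alone at an unadjusted p under 0.05. CreER-positive replicate 2 had the most reads of some spinal cord markers, with 44 raw counts of Slc6a5 (1 to 7 in the other 5 libraries) and 32 of Gad2 (5 to 8). Over the 3 markers that passed the filter, its mean deviation from the control mean was 0.57 log2 units. The part of such RNA in the release gene values was not tested, and values without this library are given beside the counts of called genes. Control replicate 2 held a summed level of skeletal muscle markers of 64.0 CPM, against 6.57 to 9.39 CPM in the other libraries.

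CreER-positive replicate 3 stood apart from its group for the release genes. It was the lowest of the 6 libraries for 22 of 37 release genes, and 33 of 37 lay below the mean of CreER-positive replicates 1 and 2. The median gap was -0.28 log2 units, against -0.00 over the 17468 tested genes that averaged 1 CPM or more. In the same library the summed macrophage markers were at 214 CPM (113 to 145 in the other 5), fibroblast markers at 1583 CPM (896 to 1170) and blood markers at 82.5 CPM (32.4 to 42.9). Satellite glia markers were at 2539 CPM, against 1858 to 2117 CPM elsewhere, and pan-neuronal markers were 0.16 log2 units below the control mean on average. The part of these cell types in the release gene values was not tested.

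All 37 release genes passed the count filter, and 1 was called. Nrxn3, which encodes the presynaptic adhesion protein neurexin 3, rose, and 0 release genes were called lower. Over the whole list 22 log2 fold changes were above 0 and 15 below, 59.5% above 0 where all tested genes had 50.9%. Their median was 0.07, against 0.00 over all tested genes, and they ran from -0.38 (Syt7) to 0.34 (Nrxn3). An unadjusted p under 0.05 was reached by 8 release genes, against 10.5% of all tested genes. Those with more RNA in CreER-positive libraries were Nrxn3, Syt9, Syp, Rab3a and Rab3b, and those with less were Syt7, Syt6 and Syt5. Groups were without overlap in CPM for 5 genes higher in CreER-positive libraries (Nrxn3, Syt9, Syt4, Rab3b and Rims1; 6.63% of all tested genes) and for 5 lower (Syt7, Syt6, Syt5, Syt1 and Unc13a; 9.31%). For 34 of 37 release genes the 95% interval lay within 0.5 log2 units of 0.

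**Figure D1:**
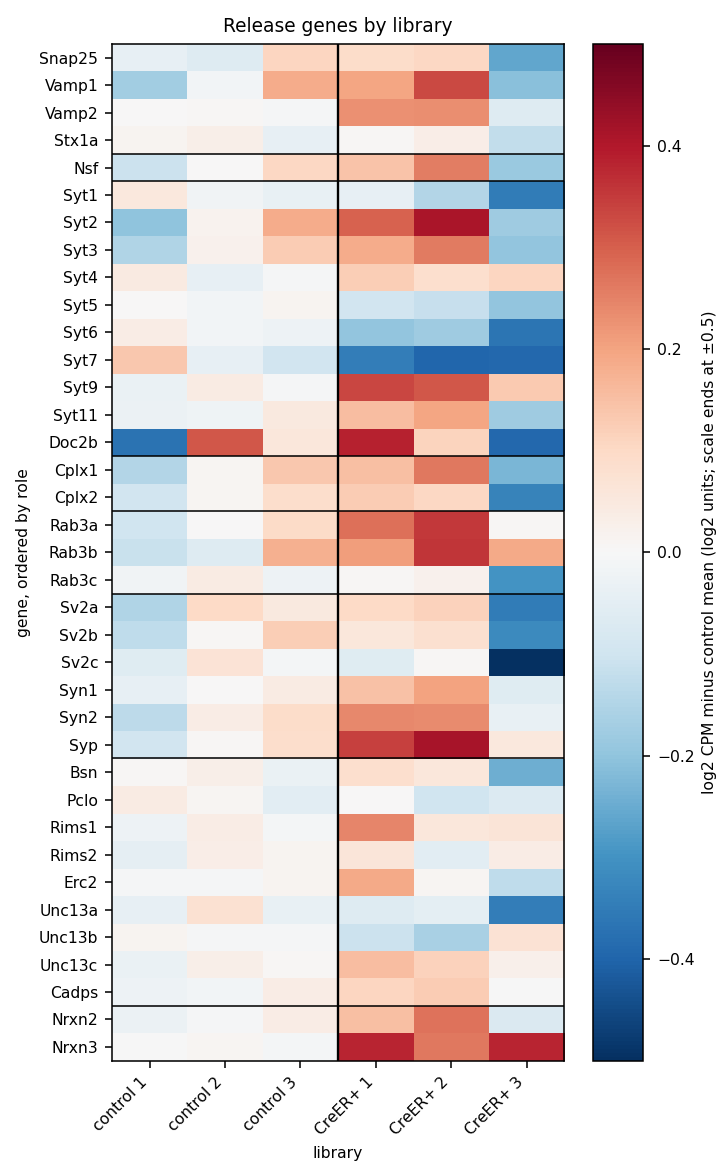
Each row is a release gene, ordered by role, and each column is a library; color is log2 CPM minus the control mean in log2 units, with the scale ending at 0.5 on either side. Of 37 rows, 30 and 29 are above the control mean in CreER-positive replicates 1 and 2 and 10 in replicate 3. Nrxn3, Syt9, Syt4, Rab3a, Rab3b, Syp, Rims1 and Unc13c are above the control mean in all 3. Syt1, Syt5, Syt6, Syt7 and Unc13a are below it in all 3.

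Other count methods called more of the list or the same number. DESeq2 called 4 release genes (Nrxn3, Syt6, Syt7 and Syt9) where it called 2.31% of genes with an adjusted p, and limma-voom called 1 (0.721% of all tested genes). Without CreER-positive replicate 3, edgeR called 6 release genes: Nrxn3, Rab3a, Syp, Vamp2 and Syt9 higher (background 1.43%) and Syt7 lower (background 1.02%). In that fit 29 of 37 log2 fold changes were above 0, with a median of 0.12. Without CreER-positive replicate 2, 19 of 37 were above 0, with a median of 0.00, and Nrxn3 was again called.

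The promoters of the release genes whose values are described most closely are shown next, so that the sequence before each start can be read beside its gene's levels. RefSeq promoters on GRCm38.p6 matched 29 of 37 release genes, with 40 windows of 250 bases before a start. Members without an entry were Snap25, Vamp2, Syt4, Syt5, Syt7, Doc2b, Rims2 and Nrxn2. Each window is written 5′ to 3′ on the gene's strand in lower case, with matches to the searched motifs in capitals: the GC box GGGCGG and the right part of the RE1 element of the repressor REST, GGACAGCG. Both strands were searched, so a match may also be in capitals as the reverse complement. The windows are Nrxn3 (the last of 3 starts, chr12:89812233-89812482, + strand), Syt9 (chr7:107370540-107370789, + strand), Syt6 (the first of 3 starts, chr3:103574995-103575244, + strand), Syp (chrX:7638330-7638579, + strand) and Rab3a (the first of 2 starts, chr8:70754453-70754702, + strand).
Nrxn3: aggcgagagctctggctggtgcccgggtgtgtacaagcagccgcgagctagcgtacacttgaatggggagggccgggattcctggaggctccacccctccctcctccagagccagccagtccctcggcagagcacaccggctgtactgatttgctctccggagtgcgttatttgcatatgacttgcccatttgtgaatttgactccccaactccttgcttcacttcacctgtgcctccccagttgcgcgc
Syt9: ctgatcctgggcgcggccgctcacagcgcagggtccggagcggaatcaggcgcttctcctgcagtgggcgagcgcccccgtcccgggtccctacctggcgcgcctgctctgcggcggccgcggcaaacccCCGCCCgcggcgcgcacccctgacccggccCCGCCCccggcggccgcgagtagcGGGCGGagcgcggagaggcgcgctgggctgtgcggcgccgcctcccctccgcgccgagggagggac
Syt6: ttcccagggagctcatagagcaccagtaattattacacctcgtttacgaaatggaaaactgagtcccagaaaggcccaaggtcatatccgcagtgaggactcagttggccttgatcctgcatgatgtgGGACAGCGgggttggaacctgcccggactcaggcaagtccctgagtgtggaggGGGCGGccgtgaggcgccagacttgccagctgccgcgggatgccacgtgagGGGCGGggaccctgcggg
Syp: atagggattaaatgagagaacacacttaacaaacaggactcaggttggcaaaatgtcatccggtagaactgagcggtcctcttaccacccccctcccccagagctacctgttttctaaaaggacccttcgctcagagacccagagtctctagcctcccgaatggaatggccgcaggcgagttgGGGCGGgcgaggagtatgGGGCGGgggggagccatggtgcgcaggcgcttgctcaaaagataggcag
Rab3a: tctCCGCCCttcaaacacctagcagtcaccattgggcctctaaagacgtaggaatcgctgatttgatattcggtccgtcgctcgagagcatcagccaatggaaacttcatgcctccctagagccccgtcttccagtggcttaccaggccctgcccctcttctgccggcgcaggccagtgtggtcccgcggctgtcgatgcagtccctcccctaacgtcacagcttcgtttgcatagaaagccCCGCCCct

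The Syt9 window held 3 GC boxes and a GC content of 80.4%, the highest among the release gene windows, and the Syt6, Syp and Rab3a windows held 2 each. The listed span of Syt9 begins at 107370349, so its window lies inside the gene and precedes a start within it. The Nrxn3 window held none of the searched motifs. A GC box on either strand was in 57.5% of the release gene windows (20 genes), against 32.7% of all 32851 windows. The release gene windows were also richer in GC, with a median of 60.2% against 52.4%. In the order release gene windows against all windows, the TATA box TATAAA was in 7.5% against 12.4%, the cAMP response element TGACGTCA in 2.5% (Syn1) against 1.55%, and the EGR site GCGGGGGCG in 2.5% (Syn2) against 2.57%. The left part of RE1, TCAGCACC, was in 2.5% (Syn1) against 1.32%, and the right part in 5.0% against 0.992%, where both release gene windows are of Syt6, overlap and share 1 match. A match is a stretch of letters and shows no binding.

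Among the neurexins, which are presynaptic adhesion proteins that bind neuroligins across the synaptic cleft, Nrxn3 was at 85.8, 86.6 and 85.4 CPM in controls and at 112, 103 and 112 CPM in CreER-positive libraries. The control libraries lay within about 1 CPM of each other, and each CreER-positive library was above all of them. Controls averaged 85.9 ± 0.604 CPM and CreER-positive libraries 109 ± 5.15 CPM (SD, n = 3). This is a log2 fold change of 0.34 ± 0.05 (SE), with adjusted p of 0.0233 in edgeR, 1.07e-05 in DESeq2 and 0.0266 in limma-voom. Nrxn3 lies on chromosome 12 and is among the longest mouse genes. The promoters used here give 3 starts, the last 1018 kb from the first, and the listed gene span begins before all 3, at 88722701. The counts do not tell transcripts of these starts apart. The call did not hold without control replicate 1 (edgeR adjusted p = 0.163), control replicate 2 (0.150), control replicate 3 (0.124) or CreER-positive replicate 1 (0.0918), and it held without CreER-positive replicate 2 (0.0185) or 3 (0.0142). It also did not hold when libraries were scaled to pan-neuronal markers (adjusted p = 0.507), while the log2 fold change stayed between 0.32 and 0.38 in all alternatives. The other listed neurexin, Nrxn2, had 148, 151 and 155 CPM in controls and 168, 183 and 144 CPM in CreER-positive libraries. Its groups overlapped through CreER-positive replicate 3, and its log2 fold change was 0.12 (edgeR adjusted p = 0.688), or 0.21 (0.0735) without that library. Summed markers of peptidergic nociceptors, another class of pain neuron, were 2551, 2211 and 2348 CPM in controls and 2857, 2657 and 2754 CPM in CreER-positive libraries, higher without overlap as for Nrxn3, Syt9 and Syt4. Of these 7 markers 5 had a log2 fold change above 0, among them Tac1 (0.39) and Calca (0.25), and edgeR called 0 of the 7 (4 were under 0.05 before adjustment), while Tac1 alone was called in DESeq2. None was at 0, and their part in the values of Nrxn3, Syt9 and Syt4 was not tested.

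**Figure D2:**
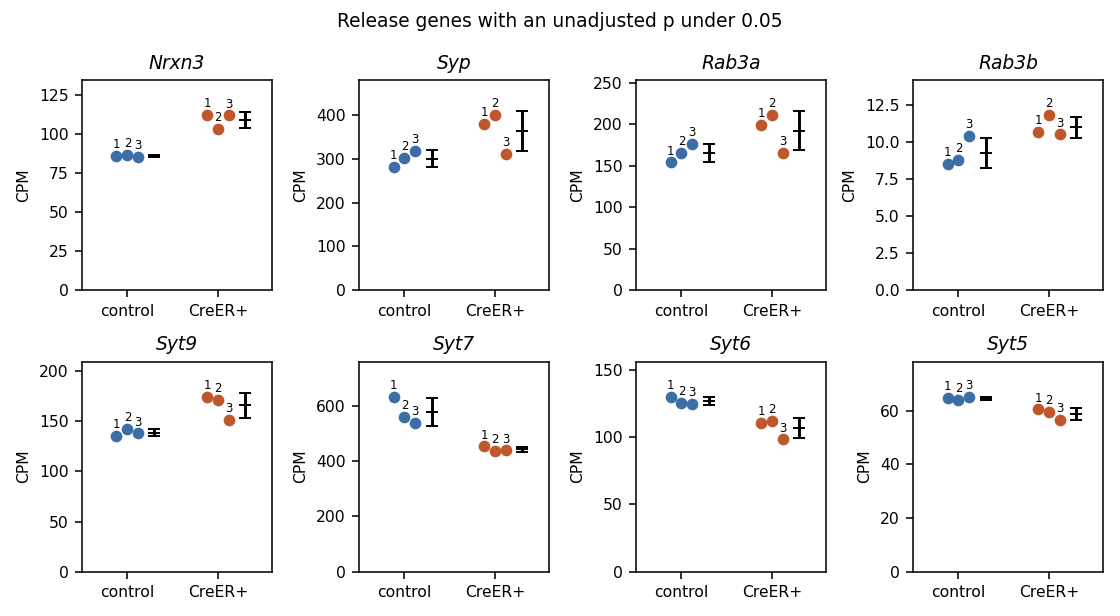
TMM-scaled CPM of the 8 release genes with an unadjusted p under 0.05, by group, with each library numbered by its replicate and the mean ± SD (n = 3) beside the points; axes start at 0. Nrxn3, Rab3b and Syt9 have every CreER-positive library above every control, Syt5, Syt6 and Syt7 have every one below, and for Syp and Rab3a replicate 3 lies among the controls.

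The synaptotagmins are the calcium sensors of fusion, and 0 of the 9 synaptotagmins and Doc2b were called by edgeR, with 1 higher and 3 lower at an unadjusted p under 0.05. Syt7, a slow, high-affinity calcium sensor for asynchronous release and for dense core vesicle and lysosome fusion, was at 632, 559 and 539 CPM in controls and at 453, 437 and 438 CPM in CreER-positive libraries. Every CreER-positive library was below every control, with averages of 442 ± 8.86 against 576 ± 49.2 CPM (SD, n = 3). On the log2 scale the fold change was -0.38 ± 0.08 (SE), and the edgeR adjusted p of 0.0649 missed the threshold. It passed with total counts alone (0.0425), with no count filter (0.0418), without CreER-positive replicate 3 (0.0327) and in DESeq2 (3.52e-05). It did not pass in limma-voom (0.0576), and with each library left out in turn the edgeR adjusted p ranged from 0.0327 to 0.316. Syt6, a calcium-binding synaptotagmin best known from sperm acrosome exocytosis, was at 130, 126 and 125 CPM in controls and at 111, 112 and 98.4 CPM in CreER-positive libraries. Its groups did not overlap either, with a log2 fold change of -0.24 ± 0.06 (SE), an edgeR adjusted p of 0.173 and a DESeq2 adjusted p of 0.0443. Syt5 followed at 64.8, 64.0 and 65.2 CPM against 60.5, 59.6 and 56.4 CPM, a log2 fold change of -0.14 with an edgeR adjusted p of 0.348.

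Summed markers of 2 sensory neuron classes lay lower in the same libraries as these 3 genes. C-fibre low-threshold mechanoreceptors are touch neurons with unmyelinated axons, and their summed markers were 291, 289 and 288 CPM in controls and 219, 194 and 175 CPM in CreER-positive libraries. Of 5 markers, 4 were called lower (Slc17a8, Th, Tafa4 and Pou4f2). The summed markers of non-peptidergic nociceptors were 2361, 2348 and 2292 CPM against 2038, 1973 and 1888 CPM, and 3 of 8 were called lower (Mrgprd, Plxnc1 and Prkcq). Others of that list did not move one way: Scn11a (-0.23) was lower without overlap, Mrgpra3 (0.29) was higher without overlap, and the groups overlapped for Lpar3 (-0.04) and P2rx3 (0.08), all log2 fold changes. None of the markers of these classes was at 0. The part of these neurons in the Syt7, Syt6 and Syt5 values was not tested.

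Syt9, a fast calcium sensor close to Syt1 and Syt2, was at 135, 142 and 138 CPM in controls and at 175, 172 and 152 CPM in CreER-positive libraries. All 3 CreER-positive libraries lay above the controls, replicate 3 the least. The log2 fold change was 0.26 ± 0.07 (SE), with an edgeR adjusted p of 0.172, which was 0.0139 without CreER-positive replicate 3, and a DESeq2 adjusted p of 0.0217. Over fits without each library in turn, the edgeR adjusted p ranged from 0.0139 to 0.579. The main fast sensor Syt1 was at 384, 366 and 361 CPM in controls and at 360, 334 and 290 CPM in CreER-positive libraries, a log2 fold change of -0.17 with an edgeR adjusted p of 0.524, or -0.09 without replicate 3. The groups of Syt1 did not overlap, but the nearest libraries were about 1 CPM apart. Within libraries, the ratio of Syt7 to Syt9 CPM was 4.67, 3.92 and 3.91 in controls and 2.59, 2.55 and 2.89 in CreER-positive libraries. The ratio of Syt9 to Syt1 was 0.352, 0.389 and 0.382 in controls and 0.486, 0.514 and 0.522 in CreER-positive libraries. The ratio of Syt7 to Syt1 overlapped between groups, at 1.65, 1.53 and 1.49 in controls and 1.26, 1.31 and 1.51 in CreER-positive libraries, with replicate 3 among the controls. A ratio within a library does not depend on its scaling. Of 11 such pairs computed, 7 did not overlap between groups, and the pairs were chosen after values were seen, so they are a description.

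Syt2, the fast sensor of large, rapidly firing neurons, was at 134, 156 and 175 CPM in controls and at 189, 204 and 136 CPM in CreER-positive libraries. CreER-positive replicates 1 and 2 were above all controls and replicate 3 was close to the lowest control, so the log2 fold change of 0.19 had a wide 95% interval of -0.14 to 0.51, and it was 0.34 without replicate 3. Syt3, a high-affinity sensor linked to vesicle replenishment and receptor uptake, also had CreER-positive replicates 1 and 2 highest and replicate 3 lowest, at 16.7 to 23.0 CPM (log2 fold change 0.09, or 0.22 without replicate 3). The vesicle SNARE Vamp1, which is typical of the same kind of neuron, was at 275, 307 and 353 CPM in controls and at 356, 390 and 268 CPM in CreER-positive libraries (log2 fold change 0.12, or 0.26 without replicate 3). With each library left out in turn, the lowest log2 fold changes of Syt2, Syt3 and Vamp1 were 0.0697, 0.00218 and 0.000816. A-fibre neurons are the large myelinated class. Their summed markers were 1749, 1852 and 2076 CPM in controls and 2205, 2397 and 1856 CPM in CreER-positive libraries. Of the 12 markers 0 were called, and 7 had a log2 fold change above 0 and 5 below. The 1 at an unadjusted edgeR p under 0.05 was Necab2, which was lower (log2 fold change -0.24). Library by library, these sums had CreER-positive replicate 2 highest and control replicate 1 lowest, while Vamp1 and Syt3 were lowest in CreER-positive replicate 3. Nefh was the largest part of the sums, with a control mean of 894 CPM, and was itself highest in CreER-positive replicate 2 (1317 CPM). A peak in CreER-positive replicate 2 was also seen for the pan-neuronal sum (13522 CPM) and for 15 of 37 release genes. The part of A-fibre neurons in the Vamp1, Syt2 and Syt3 values was not tested.

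Syt4 and Syt11, which lack part of the usual calcium binding and act in vesicle trafficking, followed different libraries. Syt4 was at 640, 603 and 617 CPM in controls and at 674, 656 and 667 CPM in CreER-positive libraries, without overlap and with a log2 fold change of 0.10 (edgeR adjusted p = 0.635). Its CreER-positive libraries had an SD of 9.13 CPM, and replicate 3 lay between replicates 1 and 2. Syt11 spanned 878 to 928 CPM in controls and 793 to 1029 CPM in CreER-positive libraries (log2 fold change 0.07, or 0.18 without replicate 3). Doc2b, a high-affinity sensor of spontaneous release, had the fewest reads of the list at 1.35 to 2.32 CPM, and its 95% interval of -0.48 to 0.55 log2 units leaves its difference undetermined at this depth.

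Of the SNARE proteins, 0 of 4 were called by edgeR with all 6 libraries, and 0 had an unadjusted p under 0.05. Snap25, the plasma membrane SNARE that botulinum toxin A cuts, was at 1190, 1170 and 1318 CPM in controls and 1306, 1316 and 1024 CPM in CreER-positive libraries. Its log2 fold change was -0.01 with a 95% interval of -0.25 to 0.22, and it was 0.10 without CreER-positive replicate 3. Vamp2, the main vesicle SNARE, had 339, 340 and 337 CPM in controls, a spread of 1.56 CPM (SD, n = 3), and 397, 398 and 324 CPM in CreER-positive libraries. CreER-positive replicates 1 and 2 were above every control and replicate 3 below every one, so that the edgeR adjusted p was 0.644 with all libraries and 0.0348 without replicate 3. Fits without each library in turn gave Vamp2 log2 fold changes of 0.0896 to 0.232, with edgeR adjusted p of 0.0348 to 0.923. Stx1a, the other plasma membrane SNARE, stayed from 59.8 to 62.8 CPM in controls and from 56.5 to 63.0 CPM in CreER-positive libraries. Nsf, which separates spent SNARE complexes, was at 275, 296 and 318 CPM against 327, 353 and 260 CPM (log2 fold change 0.08, or 0.20 without replicate 3).

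The complexins, which clamp and then assist the SNARE complex, were not called, and 0 of 2 had an unadjusted p under 0.05. Cplx1 was at 442, 492 and 537 CPM in controls and at 543, 587 and 417 CPM in CreER-positive libraries, and Cplx2 had 201 to 228 CPM against 170 to 235 CPM. In both genes CreER-positive replicate 3 was the lowest of all libraries. Their log2 fold changes were 0.07 and -0.02, with 95% intervals reaching 0.35 and 0.24, and they were 0.21 and 0.11 without that library.

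Rab3 proteins are small GTPases on the vesicle that bind Rim at the active zone. Rab3a, the main form in brain, was at 154, 165 and 176 CPM in controls and at 200, 211 and 166 CPM in CreER-positive libraries. Its log2 fold change was 0.22 ± 0.09 (SE) with an edgeR adjusted p of 0.454, which was 0.0401 without CreER-positive replicate 3. Leaving out each library in turn gave edgeR adjusted p of 0.0401 to 0.890 and log2 fold changes of 0.145 to 0.313. Rab3b had 8.54, 8.81 and 10.4 CPM against 10.7, 11.8 and 10.5 CPM, groups that parted by a narrow margin (log2 fold change 0.24, adjusted p = 0.416). Rab3c, another brain form, had 501, 521 and 498 CPM against 508, 513 and 412 CPM (log2 fold change -0.08, or 0.01 without replicate 3), with CreER-positive replicate 3 alone below the controls. The ratio of Rab3a to Rab3c was 0.308, 0.318 and 0.355 in controls and 0.393, 0.411 and 0.403 in CreER-positive libraries, again a pair chosen after its values were seen.

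Of 6 vesicle proteins, Syp had the largest difference. Syp encodes synaptophysin, the abundant vesicle membrane protein that binds Vamp2, and was at 281, 302 and 319 CPM in controls and at 380, 400 and 311 CPM in CreER-positive libraries. CreER-positive replicates 1 and 2 were well above the controls and replicate 3 was among them. The log2 fold change was 0.28 ± 0.10 (SE), with an edgeR adjusted p of 0.341, and 0.38 with an adjusted p of 0.0193 without replicate 3. Across fits without each library in turn it ranged from 0.202 to 0.376, with edgeR adjusted p of 0.0193 to 0.797. The ratio of Syp to Snap25, a pair also chosen after values were seen, was 0.236, 0.258 and 0.242 in controls and 0.291, 0.304 and 0.304 in CreER-positive libraries. The ratio of Syp to Syn1 was 1.31, 1.37 and 1.40 in controls and 1.56, 1.58 and 1.47 in CreER-positive libraries, with replicate 3 nearest to the controls. Syn1 and Syn2, synapsins that tether the reserve pool of vesicles, had log2 fold changes of 0.10 and 0.15 and adjusted p of 0.733 and 0.637, with fold changes of 0.17 and 0.24 without replicate 3. Reads of Syn1 cannot be told from those of Araf and Timp1, which overlap it, because the strand setting is not known.

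The Sv2 proteins, vesicle membrane proteins that bind synaptotagmin and take up botulinum toxin, had log2 fold changes of -0.03 (Sv2a), -0.05 (Sv2b) and -0.18 (Sv2c), the first and second of which were 0.10 and 0.06 without CreER-positive replicate 3. Sv2c was at 181, 198 and 187 CPM in controls and at 181, 189 and 129 CPM in CreER-positive libraries. CreER-positive replicate 3 alone was far below the rest, and without it the log2 fold change was -0.03.

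Of the active zone and priming genes, 0 of 9 were called by edgeR and 0 had an unadjusted p under 0.05, and all 9 had a 95% interval within 0.5 log2 units of 0. Rims1, a scaffold that links Rab3, Munc13 and calcium channels, was at 15.8, 16.5 and 16.0 CPM in controls and at 19.1, 16.8 and 16.9 CPM in CreER-positive libraries, and its relative Rims2 stayed between 87.3 and 94.4 CPM in all 6. The giant scaffold Pclo (Piccolo) had 196 to 209 CPM in controls and 190 to 203 CPM in CreER-positive libraries, and Bsn (Bassoon) had 113 to 118 against 97.3 to 122 CPM. Erc2, an active zone scaffold that binds Rim, had a log2 fold change of 0.03. Without CreER-positive replicate 3 the values of Bsn and Erc2 were 0.07 and 0.10.

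The Munc13 genes prime vesicles by opening syntaxin, and their values were mixed. Unc13a was at 167, 181 and 168 CPM in controls and at 165, 166 and 135 CPM in CreER-positive libraries, a log2 fold change of -0.15 with an edgeR adjusted p of 0.62, or -0.06 without replicate 3. Unc13b was the one of the 3 with its highest library in CreER-positive replicate 3 (98.3 CPM, against 83.7 to 94.5 CPM in the other 5). Unc13c had 69.8 to 72.8 CPM against 72.6 to 79.4 CPM (log2 fold change 0.10). Cadps, which primes dense core vesicles holding neuropeptides, was at 643, 650 and 673 CPM in controls and at 707, 715 and 654 CPM in CreER-positive libraries (log2 fold change 0.08).

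**Figure D3:**
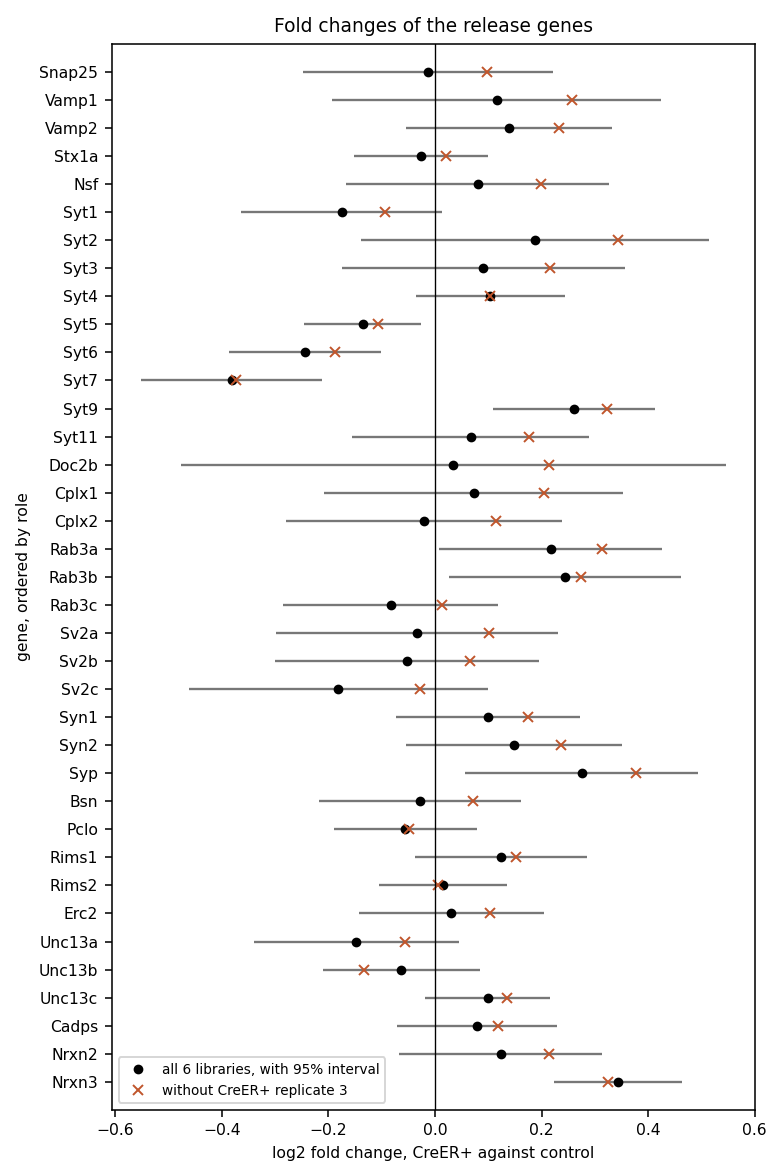
Log2 fold change of each release gene, CreER-positive against control: dots with 95% intervals use all 6 libraries, crosses leave out CreER-positive replicate 3. Most crosses lie to the right of their dots, and 29 of 37 crosses are above 0 against 22 of 37 dots.

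The gap between CreER-positive replicate 3 and the other CreER-positive libraries was uneven across the list. It ran from -0.64 to 0.21 log2 units. Among the 10 release genes of at least 200 kb the median gap was -0.10 and 7 were lower in replicate 3, while among the 27 shorter ones the median was -0.32 and 26 were lower. Over all genes of at least 1 CPM the medians were -0.02 and -0.00 for the same lengths, a boundary set after the libraries had been looked at. Summed over the list, release genes made up 0.941%, 0.959% and 0.979% of counts in controls, 0.996% and 1.01% in CreER-positive replicates 1 and 2, and 0.867% in replicate 3.

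**Figure D4:**
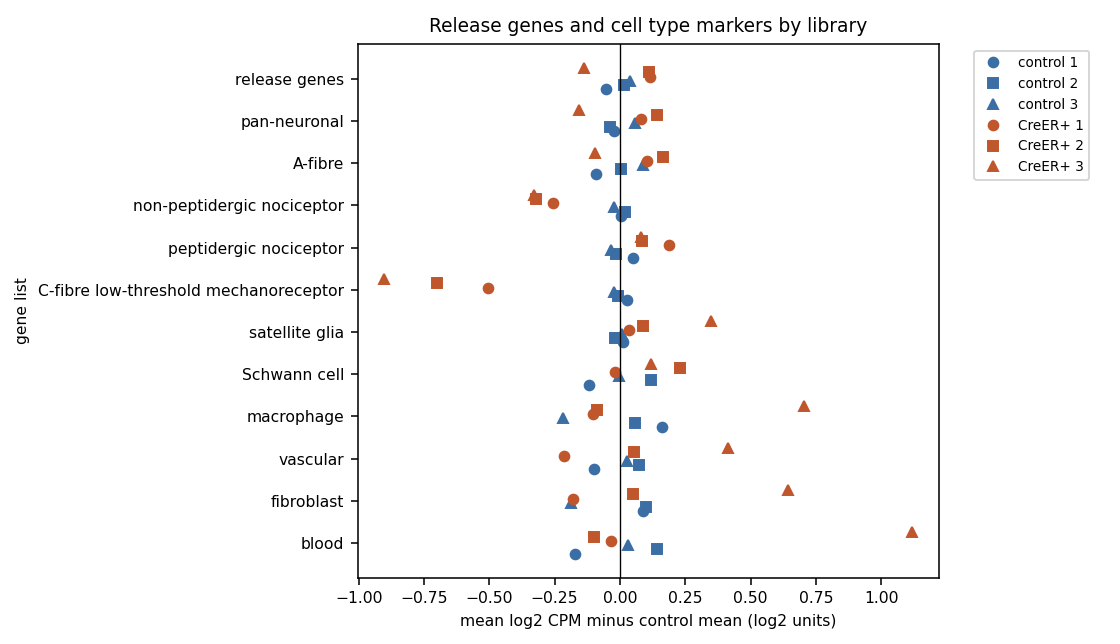
Mean log2 CPM minus the control mean, in log2 units, of the release genes and of marker lists, with blue symbols for controls and orange ones for CreER-positive libraries. The release genes and pan-neuronal and A-fibre markers have CreER-positive replicates 1 and 2 on the right and replicate 3 on the left, while replicate 3 is farthest right for macrophage, fibroblast and blood markers.

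The deposited RPKM gives reads scaled by gene length and library total, and gene widths here mostly include introns. A gene with long introns therefore has a low RPKM for its read count, so the order below does not rank RNA levels. By control mean the highest were Vamp2 (90.0 RPKM), Syt4 (66.0), Vamp1 (47.4), Rab3a (42.1) and Syt11 (30.1). The lowest were Rims1 (0.0490 RPKM), Nrxn3 (0.0546) and Doc2b (0.0687). Among synaptotagmins the order by control RPKM after Syt4 and Syt11 was Syt7 (9.17), Syt5 (8.46), Syt6 (1.85), Syt2 (1.49), Syt3 (1.23), Syt9 (0.797) and Syt1 (0.739). Syt1, with a width of 513326 bases, averaged 370 CPM in controls, while Syt3, with a width of 15949 bases, averaged 19.2 CPM.

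Other genes of release, docking, recycling and granule content were read from the same fit. Of 133 listed, 129 were tested, and Syt8, Cplx3, Cplx4 and Slc32a1 were below the count filter. The single call was Slc17a8, the vesicular glutamate transporter VGLUT3 of C-fibre low-threshold mechanoreceptors, which fell by 1.38 on the log2 scale (edgeR adjusted p = 0.00322) and is also in that class's marker list. Of the log2 fold changes 66 were above 0 and 63 below, with a median of 0.02.

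After Slc17a8, the smallest p was that of Vgf, a neuropeptide precursor of dense core granules. Vgf had a log2 fold change of 0.52 (edgeR adjusted p = 0.0970), and in the same group the peptide-trimming enzyme Cpe had 0.23 (0.263) and the granin Scg3 -0.22 (0.361), and 7 of 13 were above 0. In the Rab3 and Rab27 cycle, Rab27a had 0.17 (0.240), the Rab3 effector Rph3a 0.34 (0.248) and Rab3d 0.21 (0.381), with 11 of 17 above 0. Among calcium sensors, Syt13 had 0.63 (0.248), the membrane tether Esyt1 0.27 (0.322) and Syt12 0.30 (0.509). In these sentences each bracket is an edgeR adjusted p.

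Of 17 further SNARE and SM proteins 12 were below 0, and the smallest p were for Stxbp2 (-0.16, adjusted p = 0.496) and Stxbp6 (0.11, 0.639). The SNAP adaptors of Nsf had -0.14 (Napb), 0.09 (Napa) and -0.04 (Napg). Beside Slc17a8, the smallest p among vesicle proteins were for Slc2a13 (-0.20, 0.332) and Synpr (-0.21, 0.354), both lower without overlap. Of the 20 tested in this group 4 were lower without overlap, against 9.31% of all tested genes, and 0 were higher without overlap. Among active zone and adhesion genes, Cadps2, the relative of Cadps, had -0.23 (0.244), Nlgn1 0.19 (0.528) and Rims3 0.22 (0.530). In vesicle endocytosis the clathrin adaptor subunits Ap2s1 (0.14, 0.486) and Ap2a2 (0.19, 0.495) and the adaptor Ston2 (-0.14, 0.521) came first, and 15 of 25 were above 0.

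**Figure D5:**
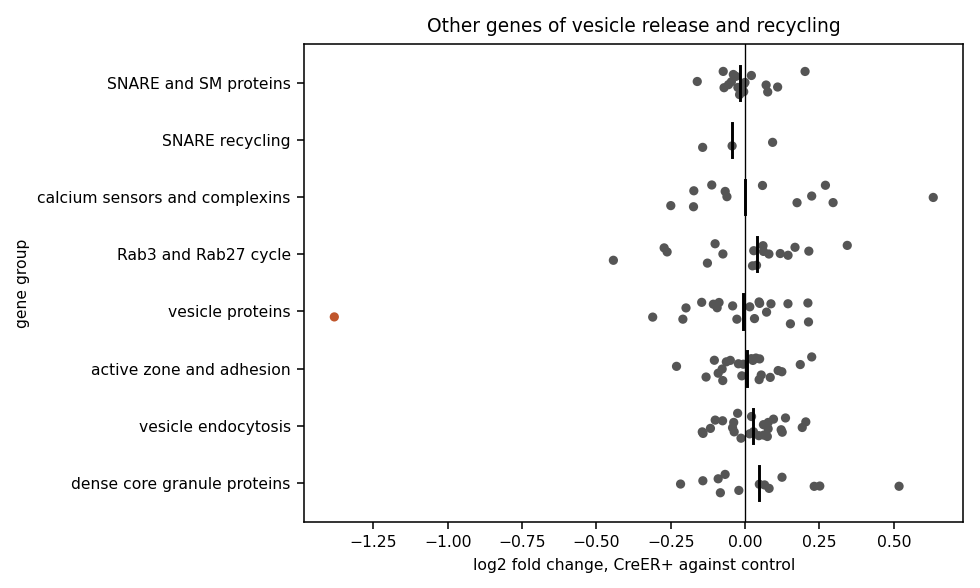
Log2 fold change, CreER-positive against control, of 129 other release genes by group, with 1 dot per gene and a black bar at the group median. The orange dot is Slc17a8, the single gene with an adjusted p under 0.05; group medians lie between -0.04 and 0.05.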

How the data were processed

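RNA from 6 libraries, 3 control and 3 CreER-positive, was grouped by the genotype label. The aligner was GSNAP and the build GRCm38 (mm10), per the submitters' processing notes. How reads were counted, on which annotation and with what strand setting is not stated in the labels. Per the file headers, the authors deposited raw counts, widths and RPKM for 36528 genes. For 77.7% of genes the width lay within 5% of the gene's span, so counts appear to include introns. The deposited RPKM was used only to order genes by reads per length, which does not rank their RNA levels.

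Counts were filtered with filterByExpr (22043 genes left), scaled with TMM and tested with edgeR 4.0.16 (quasi-likelihood, R 4.3.3), with Benjamini-Hochberg adjustment over all tested genes at 0.05. The common biological coefficient of variation was 8.99%. The edgeR step was tested on simulated data. Alternatives were DESeq2 1.42.0, limma-voom (limma 3.58.1), other scalings and filters, robust quasi-likelihood settings and fits without each library in turn. A fit without both control replicate 2 and CreER-positive replicate 3, and scaling to pan-neuronal markers, were added after seeing the data. The release genes and the other gene and marker lists were chosen with earlier results of these data known. Of the 37 release genes, 13 overlap another listed gene, and their counts may hold its reads. All release genes are named, and of the 133 others each called gene and the 3 smallest p in each of 8 groups; some genes of these lists are not reported here. RefSeq promoters (GRCm38.p6) were searched for motifs on both strands. Figures were drawn with matplotlib 3.10.9.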

Additional observations from a re-analysis of the deposited data

How the results depend on the processing

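No paired analysis was possible because the labels carry no replicate numbers and do not say which littermates belong together; the numbers used here follow the order of deposit and only name libraries. Over all tested genes the 160 calls became 254 with no count filter, 430 in DESeq2 and 65 (7 higher, 58 lower) with scaling to pan-neuronal markers, and ranged from 60 to 549 when 1 library was left out. The highest value came without CreER-positive replicate 3 (320 higher, 229 lower), and without control replicate 1, 2 or 3 the counts were 69, 60 and 76. Among release genes the 1 call became 2 with total counts alone and 2 with no filter, 4 in DESeq2, 0 with pan-neuronal scaling and 0 with control replicate 2 and CreER-positive replicate 3 both left out, and ranged from 0 to 6 with 1 library left out. Among other release genes the 1 call became 2 with no filter and 4 in DESeq2, and ranged from 1 to 11. With both libraries left out, log2 fold changes changed sign for Snap25 (0.0641), Stx1a (0.0341), Cplx2 (0.117), Rab3c (0.0336), Sv2a (0.152), Sv2b (0.0652), Sv2c (0.00618) and Bsn (0.0850). Doc2b (-0.00183) and Rims2 (-0.000437) did so with pan-neuronal scaling, and Rims2 (-0.00675) with total counts alone. With 1 library left out, ranges that crossed 0 were -0.0738 to 0.0970 for Snap25, -0.0562 to 0.0202 for Stx1a, -0.0144 to 0.198 for Nsf, -0.00260 to 0.176 for Syt11, -0.147 to 0.214 for Doc2b, -0.0305 to 0.205 for Cplx1 and -0.0961 to 0.114 for Cplx2. They were -0.138 to 0.0135 for Rab3c, -0.111 to 0.102 for Sv2a, -0.122 to 0.0649 for Sv2b, -0.0817 to 0.0709 for Bsn, -0.00770 to 0.0475 for Rims2 and -0.0521 to 0.104 for Erc2. None of these had an adjusted p under 0.05 in the fit of all 6 libraries, and the cause was not tested. With 3 animals a group, changes smaller than the intervals given cannot be seen.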
